A study of Mus musculus with 6 samples.

Results

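The cells described here were brain cells that carried smooth muscle transcripts in the sham and peri-infarct libraries of a single-cell RNA sequencing series. A cell was taken when Acta2, Tagln and Myh11 together made up at least 20 of every 10000 of its UMIs (unique molecular identifiers, which count captured RNA molecules), Col1a1, Col1a2 and Col3a1 together stayed below 20 of every 10000, and it held no UMI of Cdh5 or Ptprc. The cell also had to hold at least 500 detected genes and at most 10% mitochondrial UMIs. This gave 441 of the 4985 cells that passed those quality limits in the 2 libraries, out of 37323 such cells in the whole series. The sham library held 268 of them among 2646 cells (10.1%, exact binomial 95% interval 9.005 to 11.3%), and the peri-infarct library held 173 among 2339 cells (7.40%, 6.37 to 8.53%). All intervals given here cover counting error only.

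All mice of the series carried Tbx18CreER/+ and Rosa26tdT/+, so that tamoxifen marks cells with an active Tbx18 locus, and their descendants, with the red protein tdTomato. Tamoxifen was given into the peritoneum for 4 days and then allowed to wash out, in every group. The sham group had sham surgery, and the peri-infarct group had a photothrombotic stroke, in which light and a photosensitive dye clot the vessels of a cortical patch, with cells taken from tissue around the lesion. Cortex was digested, tdTomato-positive cells were sorted, and each group was sequenced as 1 library. The number, age and sex of the mice per library and the time after stroke are not given in the sources used here. With 1 library per group there is no replicate, so no difference below could be tested against the spread between animals, and no p-value is given. The sort also makes a share of cells a share of sorted cells, not of the vessel wall.

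Vascular smooth muscle cells wrap arteries and arterioles and set their width. Calcium entry activates myosin light chain kinase, which phosphorylates the regulatory light chain and lets smooth muscle myosin (Myh11) pull on actin filaments (Acta2). In the brain they continue into the pericytes of capillaries, and Tbx18 is a transcription factor of both kinds of mural cell. Serum response factor and its partner myocardin bind a DNA element named the CArG box in front of many contractile genes. After injury, smooth muscle cells elsewhere in the body can lose contractile proteins and gain matrix and migration genes, a change known as phenotype switching.

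Promoter sequences are shown for 2 contractile genes that varied together from cell to cell, Acta2 and Myl9, the regulatory light chain. Each run is the 250 bases before the gene start in RefSeq on GRCm38.p6, read 5′ to 3′ on the gene's own strand, with CArG boxes in capitals. The first lies at chr19:34255374-34255623 on the minus strand and the second at chr2:156775214-156775463 on the plus strand. The GENCODE models of both genes start inside these windows, upstream of the RefSeq start.
Acta2: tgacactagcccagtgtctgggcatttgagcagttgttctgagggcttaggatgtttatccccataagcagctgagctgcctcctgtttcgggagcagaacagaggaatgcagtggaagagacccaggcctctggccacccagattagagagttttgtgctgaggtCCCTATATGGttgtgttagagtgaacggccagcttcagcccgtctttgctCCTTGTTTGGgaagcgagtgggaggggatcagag
Myl9: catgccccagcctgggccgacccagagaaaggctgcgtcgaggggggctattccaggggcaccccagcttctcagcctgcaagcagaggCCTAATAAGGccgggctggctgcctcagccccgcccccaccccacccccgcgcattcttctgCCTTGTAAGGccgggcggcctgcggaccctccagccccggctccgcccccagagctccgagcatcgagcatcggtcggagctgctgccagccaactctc
The Acta2 window held boxes that start at -84 and -34 relative to the gene start, each with 1 core letter other than A or T. The Myl9 window held an exact box at -161 and a box with 1 other core letter at -99. The search read both strands, which is the same search because the box is its own reverse complement in form. In the same 250 bases before each gene start, an exact box stood in 482 of 32851 promoters (1.47%), and a box with at most 1 other core letter in 2823 (8.59%). Of the 30 genes of the contractile list, 23 had a promoter entry, 2 of these (Myl9 and Myl6) held an exact box, and 5 (Acta2, Myl9, Myl6, Crip1 and Pdlim3) held a box with at most 1 other letter. A match describes letters in this window and was not tested as a binding site.

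The sham library held 12311632 UMIs over all its barcodes and the peri-infarct library 11796570, and 1317712 and 696501 of these lay in the smooth muscle cells. The 2 libraries listed 24 barcodes in common, and no barcode was a smooth muscle cell in both. In sham, 175 of the 268 cells held a UMI of a Y-linked gene and 1 held Xist, the transcript of the inactive X chromosome. In peri-infarct, 46 of 173 held a Y-linked UMI and 76 held Xist, so this library held cells of both patterns. A single sham cell of 15047 UMIs carried nearly all haemoglobin UMIs of its group. The brain infarct library, which is not described here, held 10 cells by the same rule among 2071 (0.483%, 0.232 to 0.886%).

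Acta2 (ENSMUSG00000035783, chr19:34241090-34255590), Tagln (ENSMUSG00000032085, chr9:45929619-45936058), which encodes the actin-binding protein transgelin, and Myh11 (ENSMUSG00000018830, chr16:14194535-14291372) are protein-coding genes of the minus strand (mm10, GENCODE vM21). Because they chose the cells, their levels are given as a description. Their summed level in sham cells ran from 23.99 UMIs per 10000 at the lowest to 604 at the highest, with a median of 245 and quartiles of 125 and 353. In peri-infarct cells it ran from 22.7 to 612, with a median of 242 and quartiles of 113 and 378. The 2 ranges overlapped almost fully. The highest cell below the threshold stood at 19.6 in sham and 18.8 in peri-infarct, and 38 and 19 cells lay between 10 and 20. Of the cells taken, 16 in sham and 10 in peri-infarct stood under 40.

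The other conditions of the rule removed few cells. A Cdh5 UMI removed 15 of 284 cells at or over the contractile threshold in sham and 14 of 192 in peri-infarct, and none of them held Ptprc. Collagen at or over its threshold was met by 2 of these 284 cells in sham and 8 of these 192 in peri-infarct. As shares of all cells that passed the quality limits, 2646 and 2339, these were 0.0756% (0.00916 to 0.273%) and 0.342% (0.148 to 0.673%). The highest collagen sum of a cell taken was 18.1 in sham and 16.3 in peri-infarct.

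**Figure D1:**
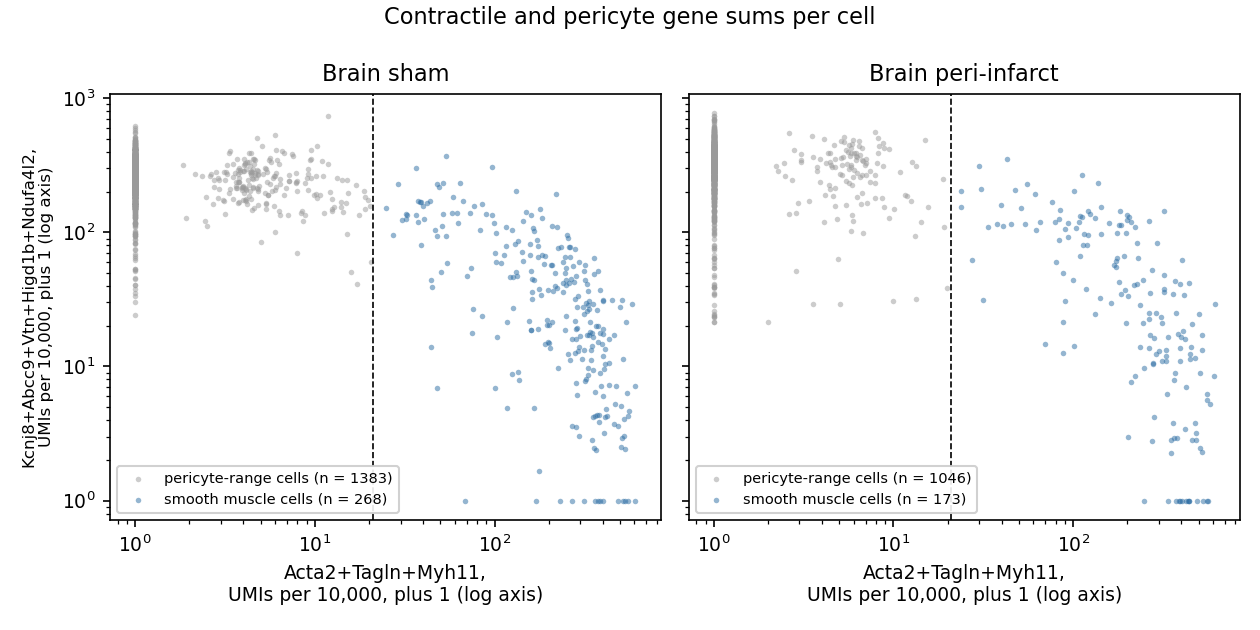
Contractile sum (Acta2, Tagln and Myh11) against pericyte sum (Kcnj8, Abcc9, Vtn, Higd1b and Ndufa4l2), in UMIs per 10000 plus 1 on log axes, 1 point per cell. Blue points are the 268 sham and 173 peri-infarct smooth muscle cells. Grey points are the 1383 and 1046 pericyte-range cells, which are defined below. Smooth muscle cells of high contractile sum had low pericyte sums in both libraries, with Spearman correlations over the smooth muscle cells of -0.70 and -0.76.

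The cells did not form a uniform set. A sum of 5 pericyte genes (Kcnj8, Abcc9, Vtn, Higd1b and Ndufa4l2) had a median of 29.4 per 10000 in sham cells and 31.4 in peri-infarct cells, and 156 (58.2%) and 102 (59.0%) of the cells reached 20. The plot of contractile against pericyte sum shows a slope from cells with both programmes to cells with little but contractile transcripts. Doublet scoring marked 15 of the 268 sham cells (59 of all 2646) and 6 of the 173 peri-infarct cells (48 of all 2339), and the part of doublets in this slope was not tested. Depth moved along the same slope: the contractile sum and the UMIs per cell had a Spearman correlation of 0.59 in each library. Points in these correlations share a library, and Acta2 is part of the contractile sum, so they are given as description. From cell to cell, Acta2 ran with Tagln (0.86 in sham, 0.88 in peri-infarct), with Myl9 (0.80 and 0.80) and less with Myh11 (0.59 and 0.51). Acta2 ran against Vtn, a pericyte gene for the plasma and matrix protein vitronectin (-0.64 and -0.66), and against Notch3, the mural cell Notch receptor (-0.43 and -0.56).

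Grouping the cells by contractile sum gave 46, 41, 93 and 88 sham cells and 23, 33, 56 and 61 peri-infarct cells at 20 to 80, 80 to 160, 160 to 320 and 320 or more per 10000. Levels below are CPM, counts of a gene scaled to a common total of UMIs after summing the cells of a group (counts per 1000000). Vtn stood at 10560.2, 5470, 2118 and 480.1 CPM from the lowest to the highest sham group, and at 12841, 6435, 2439 and 398 CPM in peri-infarct. Pln, for phospholamban, the brake of the calcium pump of the sarcoplasmic reticulum, went the other way, from 115 to 1026 CPM in sham and from 102 to 1337 in peri-infarct. Cnn1, for calponin, was at 0 CPM in the lowest group of both libraries and at 173 and 146 CPM in the highest. Notch3 stood at 1776 CPM in the lowest sham group and 474 in the highest, against 1871 and 463 in peri-infarct. Rgs4, a regulator of G protein signalling, varied less, at 1547 and 1485 CPM in the end groups of sham and 1871 and 1272 in peri-infarct. The median depth of the same groups stood at 2293.5, 2570.0, 5165 and 6069 UMIs in sham and 2270.0, 2292, 3856.5 and 5068 in peri-infarct, and its part in these levels was not tested. Vim, an intermediate filament gene, stood at 639 and 4310 CPM in the end groups of sham and at 323 and 4785 in peri-infarct. Vtn stood lower and Vim higher at every step from the lowest to the highest group, in both libraries.

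**Figure D2:**
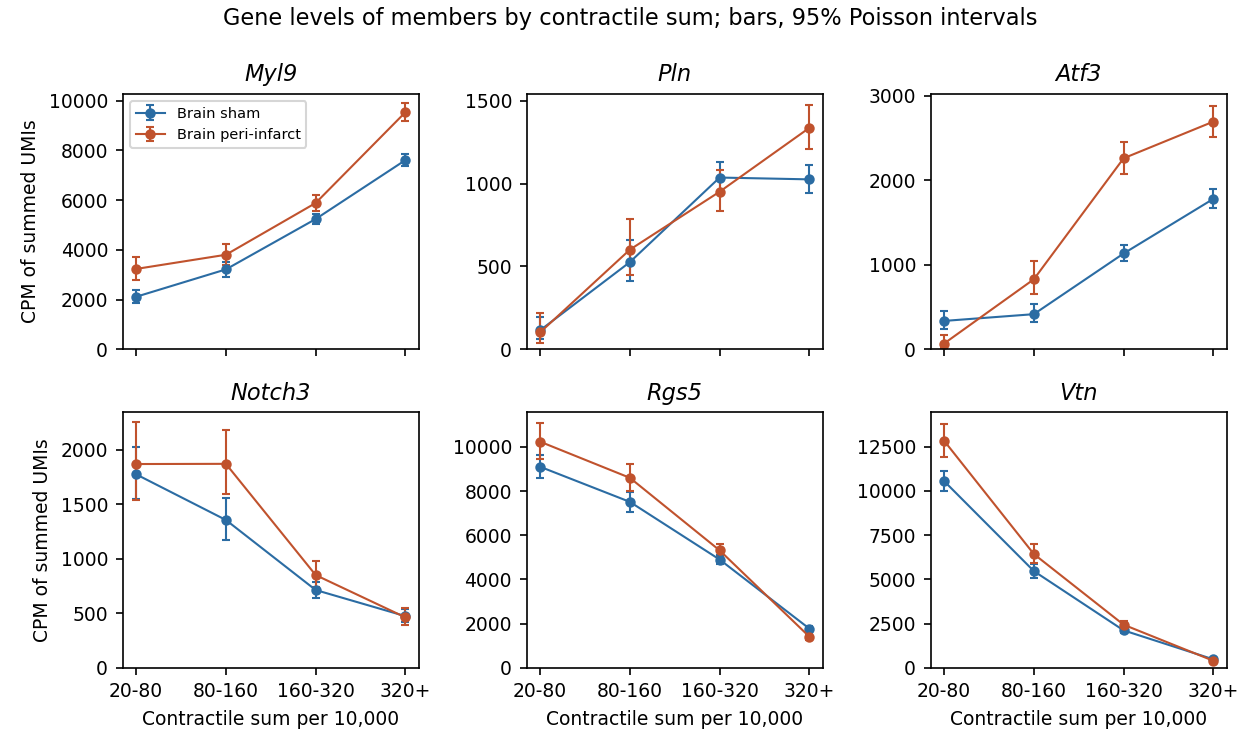
CPM by group of contractile sum (20 to 80, 80 to 160, 160 to 320 and 320 or more UMIs per 10000) for selected genes, sham and peri-infarct drawn separately. Vtn stood at 10560.2 and 480.1 CPM in the end groups of sham, where Pln stood at 115 and 1026 CPM in the end groups, and peri-infarct cells showed the same order.

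The other mural cells of the same libraries were pericyte-range cells, chosen by 20 or more per 10000 of the 5 pericyte genes, a contractile sum below 20 and no collagen, Cdh5 or Ptprc signal by the same limits. There were 1383 in sham and 1046 in peri-infarct. Since both sets were chosen by their genes, the comparison is a description. A gene counted as measured at a mean of at least 50 CPM over the 2 sets, and as higher or lower at a 2-fold ratio of CPM + 1. In sham, 297 of 3743 measured genes (7.93%) stood higher in smooth muscle cells and 517 (13.8%) lower, and in peri-infarct 281 of 3548 (7.92%) stood higher and 530 (14.9%) lower. The median over all genes was -0.24 on the log2 scale in sham and -0.23 in peri-infarct. With edgeR's trimmed-mean (TMM) scaling it stood at 0.06 and 0.10, and the counts became 453 higher and 332 lower in sham and 443 and 304 in peri-infarct, which turned the larger side from lower to higher. Of the higher genes 241 were called in both libraries (81.1% of the sham list and 85.8% of the peri-infarct list). Without the smooth muscle cells whose pericyte sum reached 20, the lower genes numbered 781 in sham and 812 in peri-infarct.

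Contractile genes stood far above their level in the neighbouring mural cells. Outside the genes of the thresholds, 22 of 24 measured contractile genes stood higher than in pericyte-range cells in each library, with a median log2 ratio of 3.40 in sham and 3.53 in peri-infarct. The 27 genes of the list other than Acta2, Tagln and Myh11 summed to 41691 CPM in sham and 45762 in peri-infarct, against 8471 and 7629 in pericyte-range cells. Endothelial-range cells (398 in each library) had 4799 and 4252 CPM and fibroblast-range cells (143 and 125) 2563 and 3162. Pln stood at 891 CPM in sham and 1006 in peri-infarct against 0.712 and 1.59 in pericyte-range cells. A Pln UMI was held by 73.9% of sham smooth muscle cells (45.3% after thinning each cell to 1000 UMIs) and 76.3% (50.3%) in peri-infarct. The share in endothelial-range cells, which serve as a background for free RNA, was 0.754% (0.257% thinned) in sham and 0.251% (0 of 394 thinned) in peri-infarct. This background is high for some mural genes. An Rgs5 UMI was held by 84.9% and 83.7% of endothelial-range cells and a Vtn UMI by 46.5% and 44.7%, and its source was not tested.

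**Figure D3:**
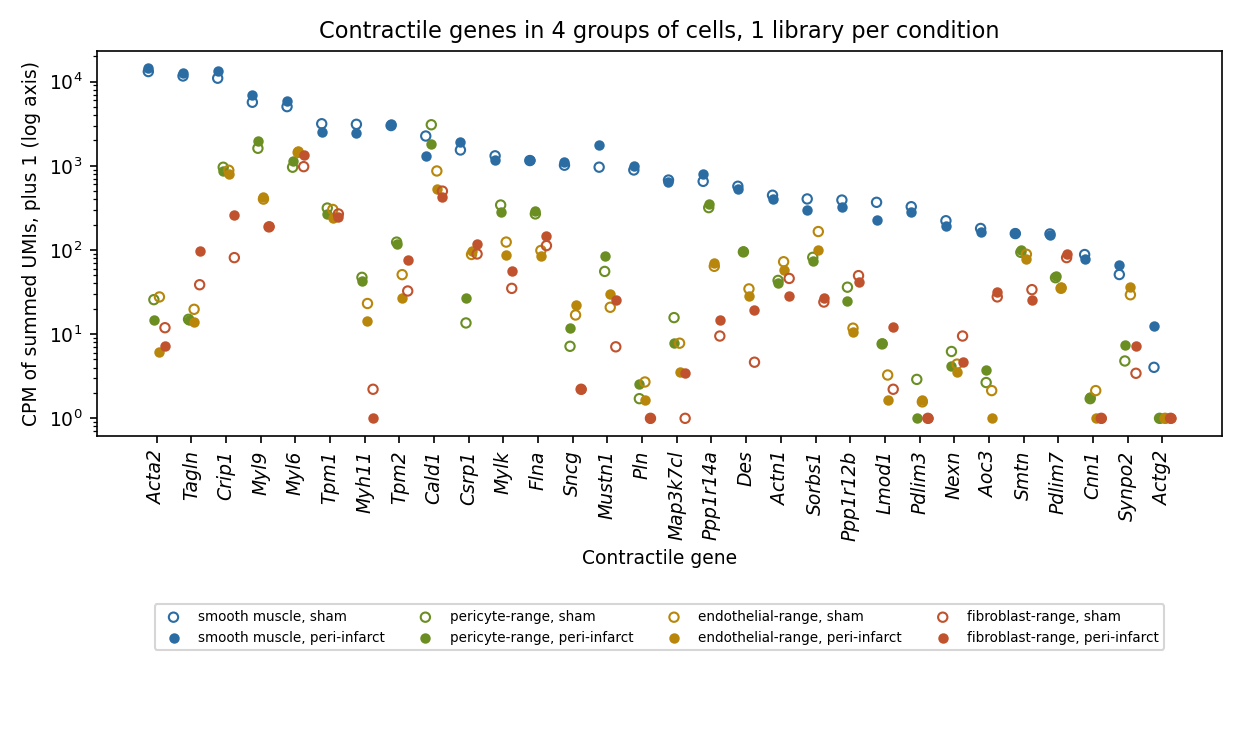
CPM of contractile genes on a log axis in smooth muscle, pericyte-range, endothelial-range and fibroblast-range cells of the sham and peri-infarct libraries. The gap in Acta2, Tagln and Myh11 is set by how the cells were chosen, while Myl9, which the rule did not use, stood at 5686 and 7015 CPM in smooth muscle and 1614 and 1979.6 in pericyte-range cells.

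Among the 15 genes with the highest ratios after Pln were several that bind actin filaments. Palld, for the actin cross-linker palladin, stood at 386 and 380.5 CPM, 7.18 and 7.20 above pericyte-range cells on the log2 scale. Pdlim3, a protein of the actinin-bound dense bodies, stood at 326 and 284 CPM against 1.90 and 0. Csrp1, a LIM protein of actin filaments, stood at 1541 and 1915 CPM against 12.6 and 25.8. Less familiar genes were as sharply split. Fbxl22, an F-box protein of ubiquitin ligase complexes, stood at 258 and 264 CPM against 0.712 and 0.794, and Tesc, the calcium-binding protein tescalcin, at 310.4 and 356 against 1.19 and 1.19. Sncg, for gamma-synuclein, stood at 1015 and 1106 CPM, with log2 ratios of 7.15 and 6.56. Aoc3, an amine oxidase of the smooth muscle surface, stood at 179 and 162 CPM with log2 ratios of 6.08 and 5.43. Also among the 15 highest were Map3k7cl, Adamtsl1, Smim5, Kcnab1 (a beta subunit of voltage-gated potassium channels), Plekho1, Rcan2 (an inhibitor of calcineurin) and Spint2 (a protease inhibitor), with Spint2 the lowest of the 15 at a log2 ratio of 5.35 in its smaller library.

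Regulators of mural cells were mixed. Myocd, for the SRF partner myocardin, stood at 47.8 CPM in sham and 45.9 in peri-infarct from 63 and 32 UMIs, under the level for a call. Its UMIs lay in 20.1% of sham smooth muscle cells (5.28% thinned) and 16.8% (3.55% thinned) of peri-infarct cells, against 1 of 1383 and 0 of 1046 pericyte-range cells and 0 of 398 endothelial-range cells in each library. Among 17 measured genes of mural transcription and Notch signalling, 3 stood higher and 2 lower than in pericyte-range cells in each library. Over all genes, 7.93% stood higher and 13.8% lower in sham, and 7.92% and 14.9% in peri-infarct. Nrip2, a nuclear receptor interacting protein, was the clearest at 313 and 368 CPM against 12.3 and 13.9. Notch3 stood at 786 and 894 CPM against 920.3 and 959, and Tbx18, the locus of the lineage mark, at 108 and 83.3 against 133 and 100.03, both near even.

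The genes with the lowest ratios still had UMIs in smooth muscle cells, some of them few, and the part of free RNA and of pericyte-rich cells in these was not tested. Nodal, a TGF-beta family ligand, stood at 9.87 and 14.4 CPM (13 and 10 UMIs) against 204 and 295 in pericyte-range cells. In endothelial-range cells it stood at 47.1 and 47.2 CPM, above its level in smooth muscle cells. Slc22a8, an organic anion transporter, stood at 32.6 and 30.2 against 519 and 537, and at 466 and 393 in endothelial-range cells. Cthrc1, a secreted protein of matrix and Wnt signalling, stood at 74.4 and 83.3 against 831 and 1199.6. The growth factor pleiotrophin (Ptn) stood at 1122 and 932 CPM against 11028 and 11249.5. Ggt1, Uchl1, Fzd6, Emcn, Aif1l, Grm3, Pla2g7, Tagln3, Nrxn2, Rgl1 and Plxdc2 completed the 15 lowest, of which Emcn, an endothelial sialomucin, stood higher in endothelial-range cells (481 and 518 CPM) than in pericyte-range cells (185 and 289.8). Rgs5 stood at 4311 and 4415 CPM against 9178 and 8509.8, a log2 ratio of -1.09 in sham and -0.95 in peri-infarct, and Pdgfrb, the platelet-derived growth factor receptor that marks mural cells, at 601 and 656 against 1908 and 1979. Kcnj8 and Abcc9, the 2 parts of the mural ATP-sensitive potassium channel, were among the genes that chose the pericyte-range cells and stood at 112 and 159 CPM in sham smooth muscle cells. Both stood higher in endothelial-range cells, Kcnj8 at 270 and 241 CPM and Abcc9 at 392 and 338. So did Vtn, at 3067 and 3513 CPM against 2605 and 2917 in smooth muscle cells. Rgs5 (3657 and 3291 CPM) and Pdgfrb (384 and 319) stood lower in endothelial-range than in smooth muscle cells.

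Immediate early genes, which are switched on within minutes of a stimulus and also by tissue digestion, were higher in smooth muscle cells than in pericyte-range cells. Of 19 measured, 13 stood higher and 0 lower in sham, and 17 stood higher and 0 lower in peri-infarct, with median log2 ratios of 2.11 and 2.87. The list summed to 23585 and 29341 CPM in smooth muscle cells, 7180.1 and 4850 in pericyte-range cells and 15869 and 9883 in endothelial-range cells. Among smooth muscle cells, Atf3, a stress-responsive transcription factor, followed the contractile sum. It stood at 336, 415, 1133 and 1779.8 CPM from the lowest to the highest sham group and at 68.0, 828, 2259.9 and 2694 CPM in peri-infarct. Of 14 endoplasmic reticulum and secretion genes, 0 stood higher and 6 lower in sham and 0 higher and 5 lower in peri-infarct, where 13.8% and 14.9% of all genes stood lower. Of the 40 genes of oxidative phosphorylation, 3 stood higher in sham and 2 in peri-infarct, no more than the 7.93% and 7.92% of all genes, with medians of 0.55 and 0.43. Median mitochondrial shares of UMIs were 4.40% and 4.71% in smooth muscle cells and 2.57% and 3.19% in pericyte-range cells, and the part of cell quality in these gene groups was not tested.

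Between the libraries, the smooth muscle cells differed at few genes. Of 3246 genes that reached a mean of 50 CPM, 11 (0.339%) stood at least 2-fold higher in peri-infarct than in sham cells and 35 (1.08%) at least 2-fold lower, 46 in all (1.42%), and the median log2 ratio was -0.02. Xist was the highest, at 0.759 CPM in sham and 336 in peri-infarct, and 4 haemoglobin genes of the single sham cell were among the lower genes. The others among the higher 11 were S100a6, Hbegf, Id2, Igfbp4, Gadd45g and Maff, which are described below, with Commd6, Hist1h4d and the predicted genes Gm10076 and Gm42418. Gm42418, which overlaps ribosomal RNA sequence, stood at 3207 and 7905 CPM, a log2 ratio of 1.30, and had 1.76 in pericyte-range cells. Scaling by TMM or by median-of-ratios factors moved the median up by 0.04 and 0.08 and gave 16 higher and 31 lower or 20 higher and 25 lower. With cells of at most 5% mitochondrial UMIs, 152 and 98 in number, 37 stood higher and 63 lower. By the same measure, pericyte-range cells had 0.636% of 3932 genes higher and 0.509% lower, endothelial-range cells 0.382% of 3668 and 0.927%, and fibroblast-range cells 1.59% of 3578 and 4.67%.

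**Figure D4:**
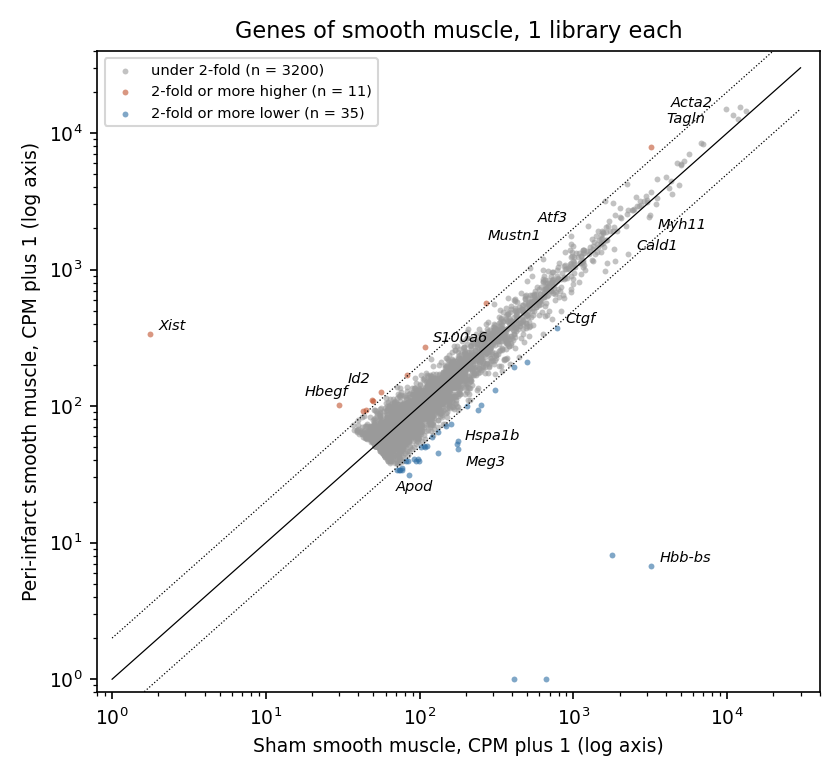
CPM + 1 in sham (horizontal log axis) against CPM + 1 in peri-infarct (vertical log axis) for the 3246 measured genes of the smooth muscle cells. Each point is 1 gene, with a line at equal levels and dotted lines at a 2-fold ratio. Most genes lie between the 2-fold lines, with 11 above and 35 below.

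Contractile genes outside the rule had ratios below 2-fold between the libraries. None of 26 measured genes was 2-fold higher or lower, 12 stood above 0 and 14 below, and the median log2 ratio was -0.06. Over all genes 1.42% passed 2-fold either way, so this list lay near the share of all genes. The 3 genes that chose the cells are given as a description. Acta2 stood at 13168 CPM in sham (exact Poisson 95% interval 12973 to 13366) and 14419 in peri-infarct (14139 to 14704), and Tagln at 11675 and 12668. Myh11 stood at 3111 and 2432 CPM, a ratio of 0.782 (0.738 to 0.828). The light chains Myl9 (5686 and 7015 CPM) and Myl6 (5045 and 5899) lay slightly above 1 in ratio. Thin-filament partners were also close, with Tpm2 (tropomyosin) at 3007 and 3107 CPM, Cnn1 at 87.3 and 77.5 and the intermediate filament gene Des at 571 and 534. The ends of the list were Cald1, for the actin-myosin brake caldesmon, and Mustn1, a small nuclear protein of muscle. Cald1 stood at 2258 and 1302 CPM, a ratio of 0.577 (0.535 to 0.622), and in pericyte-range cells at 3074 and 1828. Mustn1 stood at 962 and 1763 CPM, a ratio of 1.83 (1.69 to 1.98), and in pericyte-range cells at 54.6 and 83.4. Lmod1, a leiomodin that starts new actin filaments, had a ratio of 0.610 (0.506 to 0.732).

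Regulators, channels and receptors of tone also had no 2-fold call, near the 1.42% of all genes. None of 17 genes of mural transcription and Notch signalling passed 2-fold, and their median log2 ratio was 0.01. Notch3 stood at 786 and 894 CPM and Tbx18 at 108 and 83.3. Klf4, a transcription factor that represses contractile genes, was the lowest of them at 381 and 273 CPM, and in pericyte-range cells it had a log2 ratio of -1.27. Among 14 genes of calcium handling and excitation none passed 2-fold (median -0.08). Kcna5, a voltage-gated potassium channel of arterial muscle, stood at 87.3 and 57.4 CPM, a ratio interval of 0.447 to 0.951. Among 12 vasoactive receptors and cyclic nucleotide enzymes none passed (median 0.00). The receptor for calcitonin gene-related peptide, a dilator released by perivascular nerves, is built of Calcrl and Ramp1. Calcrl stood at 51.6 CPM in sham and 84.7 in peri-infarct, and Ramp1 at 148 and 225, with log2 ratios of 0.70 and 0.60. The pericyte-range cells had 0.67 and 0.62 for the same genes. Npy1r, a receptor for the constrictor neuropeptide Y, stood at 249.7 and 184 CPM.

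**Figure D5:**
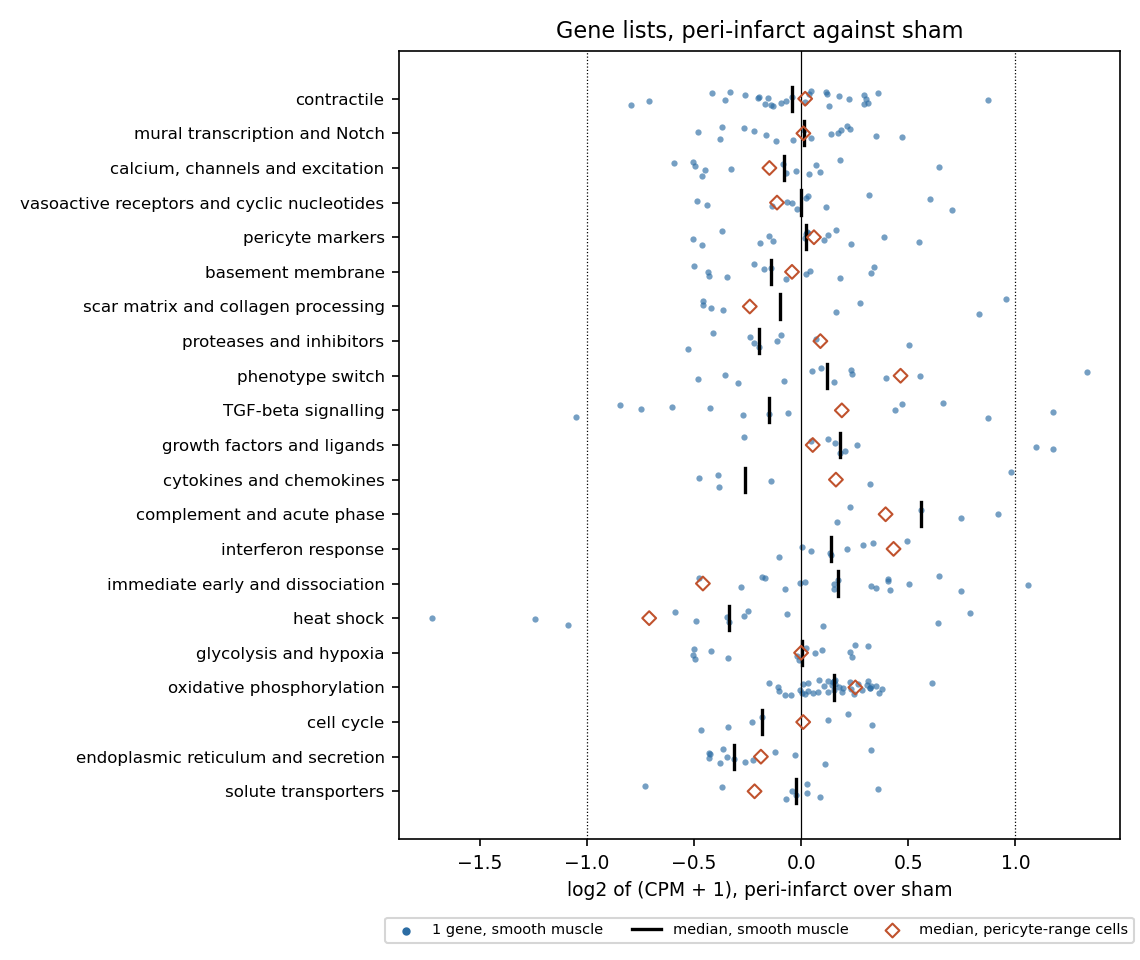
Log2 ratio of peri-infarct over sham for gene lists with more than 3 measured genes, leaving out blood markers. Points are single genes in smooth muscle cells, lines their medians, and diamonds the medians in pericyte-range cells. For contractile genes, here with the 3 that chose the cells, the smooth muscle median is -0.04. For immediate early genes the median is 0.17 in smooth muscle and -0.46 in pericyte-range cells. In endothelial-range cells, which are not drawn, it was -0.82.

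The rule left out cells with high collagen (2 in sham and 8 in peri-infarct over the contractile threshold), so cells richest in matrix transcripts were not compared. Among the cells kept, none of 13 basement membrane genes (median -0.14), 3 elastic fibre genes or 8 scar and collagen processing genes (median -0.10) passed 2-fold. Of all genes, 1.42% did. Col4a1, a chain of the network collagen of the basement membrane, stood at 310.4 and 244 CPM. The highest of the scar list was Thbs1, for the TGF-beta activator thrombospondin 1, at 69.8 and 136 CPM, a ratio of 1.95 (1.45 to 2.63), while pericyte-range cells had a log2 ratio of -0.43. With cells of at most 5% mitochondrial UMIs the Thbs1 log2 ratio was 0.13. Bgn, for the proteoglycan biglycan, stood at 205 and 365 CPM, with a log2 ratio of 0.83.

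The 12 measured genes linked to phenotype switching had a median of 0.12 against 0.46 in pericyte-range and 0.36 in endothelial-range cells. Of these, 1 stood higher and 0 lower, where 0.339% and 1.08% of all genes did. That gene was S100a6 (chr3:90612882-90624181, plus strand), for a small calcium-binding protein of growing cells. It stood at 107 CPM in sham (90.1 to 126) and 271 in peri-infarct (234 to 313), a ratio of 2.54 (2.03 to 3.18). It was found in 41 of 268 sham and 33 of 173 peri-infarct cells, and after thinning in 5.66% and 10.7% of cells. Pericyte-range cells stood at 14.2 and 72.6 CPM, a log2 ratio of 2.27, so S100a6 stood higher in peri-infarct in both classes. A single cell gave 18.4% of its UMIs in sham and 19.6% in peri-infarct, and with cells of at most 5% mitochondrial UMIs the log2 ratio was 0.41. Vim stood at 3009 and 3209 CPM, and Mgp, for the calcification inhibitor matrix Gla protein, at 946 and 1391.

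TGF-beta pathway genes split between the sides. Of 13 measured, 1 stood higher and 1 lower, where 0.339% and 1.08% of all genes did. Their median was -0.15. Ctgf (chr10:24595442-24598683, plus strand), a matrix-cell adaptor induced by TGF-beta and by stretch, stood at 777 CPM in sham (730.2 to 826) and 375 in peri-infarct (331 to 423), a ratio of 0.482 (0.419 to 0.553). No single cell held more than 3.22% of its UMIs in sham or 7.28% in peri-infarct. Pericyte-range cells stood at 54.6 and 64.7 CPM. The ligand Tgfb3 stood at 176 and 97.6 CPM and Ltbp1, which holds the latent ligand in the matrix, at 138 and 81.8, with log2 ratios of -0.84 and -0.75. On the other side Id2, an inhibitor of helix-loop-helix factors, stood at 55.4 and 126 CPM, a ratio of 2.28 (1.65 to 3.15), and Bambi, a decoy receptor, at 38.7 and 71.8.

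Among 9 growth factor genes 2 stood higher and 0 lower (median 0.18), where 0.339% and 1.08% of all genes did. Hbegf, an epidermal growth factor family ligand, stood at 47.8 CPM in sham and 109 in peri-infarct, a ratio of 2.28 (1.61 to 3.24), against 12.1 and 13.1 in pericyte-range cells. Igfbp4, a binding protein of insulin-like growth factors, stood at 41.7 and 90.5 CPM, a ratio of 2.17 (1.49 to 3.17), and its log2 ratio was -0.16 in cells of at most 5% mitochondrial UMIs. The other classes also stood higher in peri-infarct, at 8.55 and 24.2 CPM in pericyte-range, 4.54 and 16.6 in endothelial-range and 155 and 265 in fibroblast-range cells. Inflammatory and acute phase genes lay below 2-fold, as did all but 1.42% of genes. Socs3, the feedback inhibitor of cytokine receptors, was the highest of 6 cytokine pathway genes at 518 and 1022 CPM, a log2 ratio of 0.98, with 0.88 in pericyte-range and -0.58 in endothelial-range cells. Cebpd and Cebpb, transcription factors of the acute phase response, stood at 634 and 1200.3 and at 1817 and 3045 CPM. They led a list of 5 complement and acute phase genes that were all above 0, with a median of 0.56 and 0 past 2-fold. Mt1, a metal-binding metallothionein, stood at 1595 and 3151 CPM, a ratio of 1.98 (1.86 to 2.10), and at 234 and 563 in pericyte-range cells. Of 9 interferon response genes none passed (median 0.14), with Isg15 at 66.0 and 93.3 CPM.

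Immediate early genes of smooth muscle cells stood near or above their sham level in peri-infarct, with 13 of 19 above 0, a median of 0.17 and 1 past 2-fold. Over all genes, 1.42% passed 2-fold either way. In pericyte-range and endothelial-range cells the medians were -0.46 and -0.82, and the difference between cell classes could not be tested. Atf3 (chr1:191170296-191218039, minus strand) stood at 1242 CPM in sham (1183 to 1304) and 2086 in peri-infarct (1980.2 to 2196), a ratio of 1.68 (1.56 to 1.80). In pericyte-range cells it stood at 41.8 and 10.3 CPM and in endothelial-range cells at 228 and 60.0. Fos stood at 4741 and 6044 CPM in smooth muscle cells and at 1143 and 534 in pericyte-range cells. Gadd45g, a growth arrest gene, was the gene past 2-fold, at 271 and 566 CPM against 20.7 and 21.04 in pericyte-range cells. Maff, a small Maf transcription factor outside the list, stood at 48.6 and 108 CPM. Nr4a3, an immediate early gene also outside the list, went the other way, at 84.2 and 30.2 CPM, a log2 ratio of -1.45. An Atf3 UMI was held by 43.3% of sham and 46.8% of peri-infarct smooth muscle cells (30.2% and 38.5% thinned). The shares in pericyte-range cells were 5.50% and 1.34%.

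Of 13 heat shock genes 3 stood 2-fold lower, where 1.08% of all genes did, and 0 higher, and the median was -0.34 against -0.71 in pericyte-range and -0.74 in endothelial-range cells. Hspa1b, an inducible HSP70 chaperone, stood at 173 and 51.7 CPM, a ratio of 0.299 (0.204 to 0.426), and at 556 and 100.03 in pericyte-range cells. Its near-identical neighbour Hspa1a, from which short reads are hard to separate, stood at 498 and 209.6 CPM, and the co-chaperone Dnaja1 at 413 and 194. Of 13 endoplasmic reticulum genes 11 lay below 0 (median -0.31) and none passed 2-fold. Of 40 oxidative phosphorylation genes 34 lay above 0 (median 0.15, against 0.25 in pericyte-range cells) and none passed. Glycolysis and hypoxia genes were even, with a median of 0.01 over 14 genes.

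Leaving out haemoglobin, the lowest ratio was that of Meg3. Meg3, an imprinted long non-coding RNA, stood at 175 and 47.4 CPM, a ratio of 0.270 (0.182 to 0.390), with log2 ratios of -0.90 in pericyte-range and 0.70 in fibroblast-range cells. Malat1, a nuclear RNA chosen after its values were seen as was Neat1, stood at 57439 and 30484 CPM in smooth muscle cells and at 64418 and 31142 in pericyte-range cells. Neat1 stood at 442 and 229.7 CPM in smooth muscle cells and at 118 and 83.0 in pericyte-range cells, and neither gene reached 2-fold in smooth muscle cells. Median UMIs per smooth muscle cell were 4890.0 in sham and 3779 in peri-infarct, and the part of nuclear RNA content and depth in the lower genes was not tested. Rapgef4, an exchange factor that responds to cyclic AMP, stood at 131 and 44.5 CPM, with log2 ratios of -1.54 here and -1.40 in pericyte-range cells. Nr4a3, an immediate early nuclear receptor outside the list, stood at 84.2 and 30.2 CPM, and Snrnp70, a splicing factor, at 251 and 101. The remaining genes of the 15 lowest were Apoe, Apod, AC160336.1, Shoc2, Smchd1, Cbfa2t3 and Cwc22, with the Y-linked Ddx3y and Eif2s3y.

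Because the 2 libraries held different mixes of cells with Y-linked and with Xist UMIs, ratios were also taken over cells with a Y-linked UMI and no Xist, 174 in sham and 44 in peri-infarct. Over these, the log2 ratio was 0.91 for S100a6, -1.01 for Ctgf, -2.28 for Meg3, -1.94 for Hspa1b, 1.97 for Hbegf, 1.70 for Id2 and 0.59 for Atf3, the same signs as over all cells. These cells are part of all cells, and S100a6 was no longer 2-fold higher, at 109 and 205 CPM. In peri-infarct cells with Xist and no Y-linked UMI it stood at 411 CPM. Sham held 0 such cells, so sex pattern and library could not be told apart. The Y-linked Ddx3y and Eif2s3y, which had stood lower over all cells, had log2 ratios of -0.00 and 0.09. Both were among the Y-linked genes that chose these cells, so their ratios are a description and not a check.

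Markers of other cells were summed in the smooth muscle cells of both libraries. The 15 endothelial markers summed to 545 CPM in sham and 487 in peri-infarct against 23381 and 26131 in endothelial-range cells, with 1 and 2 of them at 0. Esam, an adhesion molecule at 319 and 370.4 CPM, made up most of that sum. The 13 fibroblast markers summed to 413 and 233 CPM against 13959 and 10823 in fibroblast-range cells, with 2 and 4 at 0. The 16 macrophage and microglia markers summed to 37.9 and 20.1 CPM, with 3 and 11 at 0. Astrocyte markers summed to 1029 and 884 CPM against 1041 and 1076 in pericyte-range cells. Of the 13, 3 in sham and 5 in peri-infarct were at 0, the defining Aqp4 and Gfap among them, and Cpe, Plpp3 and Ndrg2 gave most of the sum. Oligodendrocyte markers summed to 22.8 and 30.2. Neuron markers summed to 256 and 119 CPM with 2 and 4 of 8 at 0, of which Meg3 gave 175 and 47.4. Arachnoid and meningeal markers summed to 656 and 724 CPM, of which Ptgds came largely from a single cell in each library. The part of these markers in the differences between libraries was not tested.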

How the data were processed

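Cells sorted for tdTomato from sham and stroke cortex were sequenced as 10x 3' version 3 libraries. The values deposited by the authors are unnormalised UMI counts for each gene in each barcode. Cell Ranger 3.0.2, Seurat 3 and the mm10 build are named, per the submitters' processing notes. The files list 31053 genes. They hold barcodes called as cells, so free RNA was gauged from other cell classes, of which endothelial-range cells themselves held some mural transcripts.

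For each cell class and library, the UMIs of all its cells were added up (Python 3.11.15, numpy 2.4.6, scipy 1.17.1, pandas 2.3.3) and divided by the class total (CPM). Ratios are of CPM + 1, a gene was measured at a mean of at least 50 CPM, and a 2-fold ratio was the call. Poisson and Clopper-Pearson intervals are at 95%. Endothelial-range cells were taken by 4 endothelial genes at 20 or more per 10000, and fibroblast-range cells by the 3 collagens. The procedure was tested on simulated data. Doublets were scored with Scrublet in scanpy 1.11.5, marking the top scores at 0.8% per 1000 barcodes, and were kept. TMM factors came from edgeR 4.0.16 in R 4.3.3, with no edgeR test, since each group is 1 library.

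The members and the 30 gene lists were chosen with earlier results of these data known. In each comparison the genes at the 15 highest and the 15 lowest ratios were named (without ribosomal, mitochondrial, predicted and haemoglobin genes), with up to 5 genes per list and 15 fixed genes. Gene positions are from GENCODE vM21 and promoter sequences from RefSeq on GRCm38.p6, where 23 of 30 contractile genes matched by symbol. Alternatives varied the scaling, level limit, pseudocount, depth, mitochondrial and contractile limits, and left out pericyte-rich cells, doublets and shared barcodes.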

Additional observations from a re-analysis of the deposited data

Results flagged for a closer look

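Of the genes measured at 50 CPM or more in both classes, 3 stood at least 1.5-fold apart between the libraries in opposite directions in smooth muscle and pericyte-range cells, and the difference was not tested because each group is 1 library. Apod, a lipocalin of perivascular cells, had a log2 ratio of peri-infarct over sham of -1.13 in smooth muscle cells, from 73.6 to 33.0 CPM, and of 1.95 in pericyte-range cells, from 55.8 to 219 CPM. A single smooth muscle cell held 66.0% of the Apod UMIs in sham and another 78.3% in peri-infarct. Its log2 ratio turned to 0.51 without pericyte-rich cells, 1.49 without the cells marked as doublets and 0.36 without shared barcodes, the sign seen in pericyte-range cells. Apoe, the lipid carrier, had a log2 ratio of -1.23 in smooth muscle cells, from 309 to 131 CPM, and of 1.38 in pericyte-range cells, from 542 to 1416 CPM, with 25.3% of the sham UMIs of the smooth muscle cells in a single cell. Dnajb1, a co-chaperone of HSP70, had a log2 ratio of 0.64 in smooth muscle cells, from 57.7 to 90.5 CPM, and of -1.46 in pericyte-range cells.

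In the brain infarct library, which the comparisons did not use, 341 of the 354 cells at or over the contractile threshold were also at or over the collagen threshold. The corresponding numbers were 2 cells in sham and 8 in peri-infarct.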

How the results depend on the processing

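Each group is 1 library, so no library could be left out in turn, and the depth of 696501 UMIs in the peri-infarct cells limits genes near 50 CPM. No paired analysis was possible because each group is 1 library, which leaves 1 pair and no spread. The cause of each change below was not tested. Against pericyte-range cells (reported 297 and 281 genes higher, 517 and 530 lower, in sham and peri-infarct), TMM factors gave 453 and 443 higher and 332 and 304 lower, and median-of-ratios factors 470 and 466 higher and 319 and 296 lower. A limit of 100 CPM gave 183 and 167 higher and 278 and 260 lower, and a limit of 20 CPM gave 476 and 456 higher and 942 and 1077 lower. Between the libraries (reported 11 higher, 35 lower), median-of-ratios factors gave 20 higher, a limit of 100 CPM 5 higher and 16 lower, a limit of 20 CPM 47 and 118, a pseudocount of 10 gave 22 lower, and per-cell means 19 higher. Thinning to 1000 UMIs gave 88 and 169. With at most 5% mitochondrial UMIs (152 and 98 cells) there were 37 higher and 63 lower, and 343 lower than pericyte-range cells in peri-infarct. Without cells of a pericyte sum of 20 or more (112 and 71 cells left) there were 29 and 84, with 781 and 812 lower than pericyte-range cells. Among cells with a Y-linked UMI and no Xist (174 and 44), a limit set after seeing the data, there were 54 and 132. A turn of direction was counted only in named genes at least 2-fold apart as reported, and few of these turned. They were Igfbp4 (-0.16 at 5% mitochondrial UMIs), Apod (0.51 without pericyte-rich cells, 1.49 without doublets, 0.36 without shared barcodes), and Hbb-bs (0.081) and Hba-a1 (1.31) without the haemoglobin-rich sham cell. Eif2s3y also turned (0.088 among Y-linked cells, which it helped to choose). Leaving out the haemoglobin-rich cell or shared barcodes was also chosen after seeing the data. Of 928 values of named genes between the libraries, 803 stayed within their counting interval, 118 moved and 7 turned. A change of sign in a gene reported below 2-fold could not count as turned, and fell under the other 2 labels. The contractile thresholds of 10 and 40, 1000 genes per cell, doublets, shared barcodes and the haemoglobin-rich cell left both counts within 1.5 times.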

Other observations

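Other gene groups were also set against pericyte-range cells, where 7.93% of all genes stood higher and 13.8% lower in sham, and 7.92% and 14.9% in peri-infarct. Of 12 measured TGF-beta pathway genes 6 stood 2-fold higher and 2 lower in sham, and of 13 in peri-infarct 5 stood higher and 3 lower. Ltbp1 stood at 138 CPM in sham and 81.8 in peri-infarct against 4.75 and 5.56 in pericyte-range cells, and Cyr61, a matrix protein related to Ctgf, at 650.4 and 538 against 57.5 and 63.9. Among 7 measured cell cycle genes 4 stood higher in sham (median log2 ratio 2.47) and among 6 in peri-infarct 3 did (median 1.22). The 4 in sham were cyclins of the G1 phase and inhibitors of division: Ccnd1 (115 CPM against 16.6), Ccnd2 (369.6 against 45.4), Cdkn1a (141 against 16.9) and Cdkn1c (282 against 50.1). Genes of the mitotic phases did not reach the level to be measured. Of 10 solute transporters 1 stood higher and 7 lower in sham, and of 12 in peri-infarct 1 stood higher and 9 lower. Slc6a20a, an amino acid transporter, stood at 125 and 128 CPM against 947 and 1014. These sets of cells were chosen by their genes, and the values are a description.

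Below the level for a call, and chosen after their values were seen, Fgf1 stood at 13.7 CPM in sham smooth muscle cells (18 UMIs) and 56.0 in peri-infarct (39 UMIs), a ratio of 4.10 (2.29 to 7.61). In pericyte-range cells Fgf1, a fibroblast growth factor, stood at 0.237 and 1.59 CPM. Hsph1, an HSP110 chaperone, stood at 47.1 CPM in sham (62 UMIs) and 8.61 in peri-infarct (6 UMIs).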
